A study of Mus musculus with 170 samples.

Results

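The genes that make and use microRNAs were read in single cells of mouse heart ventricles at embryonic day 9.5. They were 10 rows chosen by symbol (Dgcr8, Drosha, Xpo5, Dicer1, Tarbp2, Ago1, Ago2, Ago3, Tnrc6a and Tnrc6b) among the 40549 gene rows of the expression table, and all 10 were present once. Control hearts were Dgcr8 loxP/loxP with 1 copy of the ROSA26 mT/mG membrane reporter and no Cre, and were labelled wild type. Conditional knockout (cKO) hearts carried the same floxed Dgcr8 alleles and the same reporter together with Mesp1 Cre/+, and were labelled Dgcr8-/-. Both were on a C57BL/6 background. The Mesp1 locus drives Cre in early mesoderm progenitors, whose progeny include most cells of the heart, so deletion was not limited to cardiomyocytes (CMs). Cells were picked by hand and sequenced by Smart-seq2 in 2 batches. The table holds 74 control and 69 cKO cells.

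A microRNA starts as a hairpin inside a long primary transcript. In the nucleus the microprocessor, made of the RNase Drosha and its RNA-binding partner Dgcr8, cuts the hairpin out, and Exportin-5 (Xpo5) carries it to the cytoplasm with the GTPase Ran. Dicer1, helped by Tarbp2, trims it to a duplex, and 1 strand is loaded into an Argonaute protein (Ago1 to Ago4). The Argonaute finds mRNAs by pairing of the microRNA seed, bases 2 to 8, and the Tnrc6 (GW182) proteins bind Argonaute and recruit the deadenylases that shorten the mRNA's tail. Without Dgcr8 the canonical pathway stops at its first step, while Dicer1 and the Argonautes can still handle the few microRNAs that bypass the microprocessor.

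Several members have 3′ UTRs that hold seed matches to microRNAs of the heart, so the sequences are shown first. The mature microRNAs were taken from RefSeq (GRCm38.p6), with the seed in capitals. They were chosen because the study names miR-541, miR-26a, the miR-30 family and miR-126, and because let-7 is a broadly expressed family. The search left out miR-1, the most abundant microRNA of the study, and miR-133a and miR-378a, which it also names. The matches below therefore do not cover the abundant microRNAs of the heart as a whole.
let-7a-5p: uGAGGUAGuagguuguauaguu
miR-26a-5p: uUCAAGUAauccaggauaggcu
miR-30a-5p: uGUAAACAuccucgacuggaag
miR-126a-3p: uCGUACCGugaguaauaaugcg
miR-541-5p: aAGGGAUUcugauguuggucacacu
The search was for the reverse complement of the seed on the transcript strand of 1 annotated 3′ UTR per gene (GENCODE M21). Of 20998 genes, 8.95% held the let-7a match CTACCTC, 9.66% the miR-26a match TACTTGA and 13.7% the miR-30a match TGTTTAC. The miR-126a match CGGTACG was held by 0.157% and the miR-541 match AATCCCT by 8.02%. Dgcr8, Drosha, Dicer1 and Xpo5 held none of the 5. Ago2 held 6 matches in 11064 bases, Ago3 7 in 12742 bases and Tnrc6b 6 in 11609 bases, UTRs longer than those of over 99.8% of genes. Tnrc6a held 5 matches in only 2345 bases, 2.13 per kb, against 0.319 per kb over all genes pooled. Its 4 miR-30a matches are shown with the 10 bases before and the 6 bases after, capitals marking the match and the name giving the first base in the UTR.
Tnrc6a UTR 434: ccagtgtagaTGTTTACtcaagg
Tnrc6a UTR 722: tgaaccttctTGTTTACagattt
Tnrc6a UTR 761: agaaaaaaaaTGTTTACtcttcc
Tnrc6a UTR 1521: ggcttttaacTGTTTACaatagg
Only 12 of 20981 gene symbols, 0.057%, had 4 or more miR-30a matches. The single miR-26a match of Tnrc6a and the first of the 2 in its paralog Tnrc6b are also shown. Their 3′ ends are alike over 15 of 23 bases, of which 7 are the match that both were searched for.
Tnrc6a UTR 150: tcagtttgaaTACTTGAatcatg
Tnrc6b UTR 238: actcttgaaaTACTTGAatcatg
Tarbp2, whose 3′ UTR has 334 bases, held 1 let-7a match. At 2.99 per kb this was the highest density of the 10 members, above Tnrc6a, though it rests on that 1 match.
Tarbp2 UTR 102: ggtgccatctCTACCTCtgacac
A match describes these letters only, and no match was tested for microRNA binding.

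Dgcr8 itself carries a microRNA hairpin. The Mir1306 hairpin lies at 16:18284239-18284317 (GRCm38, minus strand), inside coding exon 2 of 14 of Dgcr8, and gives 2 mature microRNAs. It is shown because the microprocessor is known to cut this hairpin out of the Dgcr8 mRNA.
miR-1306-5p: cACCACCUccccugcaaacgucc
miR-1306-3p: aCGUUGGCucugguggugaug
The expression table has no row for Mir1306, so reads from the hairpin could count within Dgcr8 or within another gene model that overlaps it. Dgcr8 spans 16:18253948-18289246 on the minus strand, with 4320 exon bases. Of those, 825 bases (19.1%) are also exon of Trmt2a on the opposite strand. The Smart-seq2 protocol does not mark strand, so reads in that stretch cannot be told apart, and the level of Dgcr8 is uncertain for that reason. A further 327 exon bases (7.57%) are shared with the same-strand gene model Gm49776, between which reads could also be divided. The same-strand microRNA gene model Gm24572 shares 88 exon bases (2.04%), and whether it covers the hairpin was not checked. Of the other members only Ago2 shared exon with an opposite-strand gene, Chrac1, over 219 bases (1.59%).

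Cells were grouped by hierarchical clustering on marker genes into 5 clusters. The 96 CM-like cells (28 control, 68 cKO) had 15 of 15 CM markers higher than the other cells. The 22 endothelial-like cells were all control and had 13 of 13 endothelial and 4 of 14 mesenchymal markers higher. The 13 epicardial-like cells, all control, had 6 of 6 epicardial and 9 of 14 mesenchymal markers higher. The paper reports that cKO CMs came apart more easily and were picked more often. It also found endocardium and endothelial cells in cKO hearts. A further 3 control cells were erythroid-like, and 9 cells led by mitochondrial transcripts (8 control, 1 cKO) stayed unnamed. No label ties a cell to an embryo, so each genotype is 1 sample, cells are not replicates, and no test between genotypes or classes was possible. Differences below are described by size, by the SD across cells and by whether both batches share their sign. A difference of at least 1 log2 unit with the same sign in both batches is called past the size rule, and the share of all genes past it is given as background.

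Xist, transcribed from an inactive X, reached a transcripts-per-million (TPM) value of 1 in 64 of 68 cKO and 0 of 28 control CM-like cells, where 3 counts of the total would be 10.7% and the exact 95% upper limit is 12.3%. The Y-linked Ddx3y reached it in 19 of 28 control and 0 of 68 cKO cells, where the same limits are 4.41% and 5.28%. Genotype, embryo and sex therefore cannot be told apart in any difference below. CM-like cells had 3805 to 11468 detected genes, with medians of 8477 (control) and 9798 (cKO) in batch 1 and 9679 and 7765 in batch 2, so the order of the genotypes turned between batches. The median mitochondrial share was 6.27% in control and 3.01% in cKO CM-like cells, and summed CM marker TPM had medians of 60936 and 87407. Summed markers of other cell types had medians of 22.0 (control) and 31.0 TPM (cKO) for endothelial, 4.48 and 14.2 for mesenchymal, 2.48 and 23.0 for epicardial and 8.96 and 7.35 for erythroid genes. Of these lists 1 mesenchymal and 1 erythroid marker were at 0 in every cKO CM-like cell and none in the control cells. In 2 control CM-like cells of batch 2 the erythroid sum was 11701 and 35446 TPM, against at most 555 in any other CM-like cell. The part of these values in the differences below was not tested.

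In control CM-like cells Tarbp2 was the most abundant of the 10 transcripts per length, and Ago1 and Ago3 the least. Mean log2(TPM + 1) was 6.03 ± 2.37 (SD across 28 cells) for Tarbp2. It was 2.87 ± 1.94 for Drosha, 2.78 ± 1.31 for Ago2 and 2.41 ± 2.75 for Dgcr8. It was 1.93 ± 1.34 for Tnrc6a, 1.74 ± 1.37 for Tnrc6b, 1.60 ± 1.77 for Xpo5 and 1.60 ± 1.62 for Dicer1. Ago1 stood at 0.62 ± 1.15 and Ago3 at 0.60 ± 1.41. Below Tarbp2, each neighbour in this order lay within the other's SD. In cKO CM-like cells Tarbp2 was again highest at 4.01 ± 2.78 (68 cells), and Ago2 (3.11 ± 1.38) and Tnrc6a (2.97 ± 1.68) came next, above Drosha (2.74 ± 2.41). Pooled over batches, Dgcr8 stood below Tnrc6a, Tnrc6b and Dicer1 in cKO cells, at 1.64 ± 2.45, and above them in control cells. The order in cKO cells depended on batch. In batch 1 Dgcr8 stood at 2.31, above Dicer1 (1.64), next to Tnrc6b (2.33) and below Tnrc6a (3.18). In batch 2 it stood at 0.97, below Dicer1 (2.03), Tnrc6a (2.75) and Tnrc6b (2.93).

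**Figure D1:**
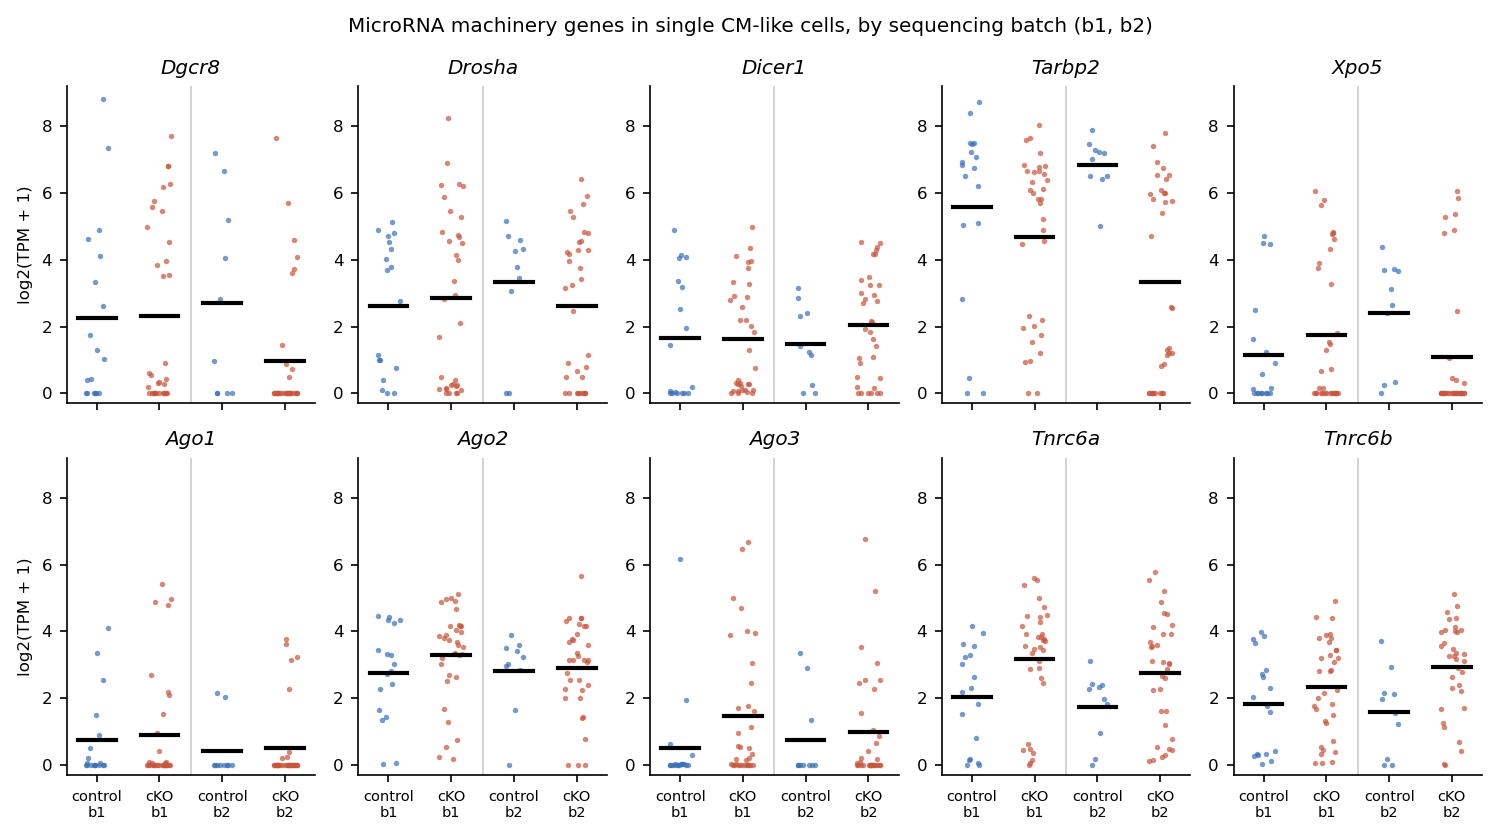
Level of each of the 10 genes in single CM-like cells, as log2(TPM + 1) on the vertical axis, with control (blue) and cKO (red) cells of batch 1 (b1) and batch 2 (b2) on the horizontal axis and the mean as a black line. Cells at 0 and cells well above the mean stand side by side for most genes, and Tarbp2 and Tnrc6a are the genes whose means differ in the same direction in both batches by 1 log2 unit or more when pooled.

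The deletion is of Dgcr8, so its transcript was read first. Dgcr8 ran from 0 through a median of 1.24 to 449 TPM in the 28 control CM-like cells and from 0 through 0 to 207 TPM in the 68 cKO cells. The ranges overlapped almost fully, and 1 control cell lay above the highest cKO cell. It was detected (TPM above 0) in 18 of 28 control cells, 64.3% (exact 95% CI 44.1 to 81.4), and 32 of 68 cKO cells, 47.1% (34.8 to 59.6). These and all later intervals cover counting error over cells only. The mean was lower by 0.77 log2 units in cKO cells, from a difference of 0.05 in batch 1 and −1.72 in batch 2. Among the cells that detected it, the mean was 3.75 in control and 3.48 in cKO cells. In batch 2 alone, Dgcr8 was found in 6 of 10 control and in 10 of 34 cKO cells. A gene-level TPM counts reads from the exons that deletion leaves in place, so a persisting Dgcr8 value does not check the deletion.

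Drosha, the RNase of the microprocessor, differed little. Its TPM ran from 0 through 12.5 to 34.6 in control and from 0 through 7.30 to 303 in cKO cells, and 13 cKO cells lay above every control cell. It was found in 24 of 28 and 55 of 68 cells, and the pooled difference of −0.13 came from 0.25 in batch 1 and −0.72 in batch 2. Both microprocessor transcripts were detected together in 15 of 28 control cells, 53.6% (33.9 to 72.5), and 27 of 68 cKO cells, 39.7% (28.0 to 52.3). In batch 1 the joint share was 55.6% (30.8 to 78.5) in control and 58.8% (40.7 to 75.4) in cKO cells, and in batch 2 it was 50.0% (18.7 to 81.3) and 20.6% (8.70 to 37.9). Of the 68 cKO cells 28 held Drosha without Dgcr8 and 5 held Dgcr8 without Drosha. Of the 28 control cells 9 held Drosha without Dgcr8 and 3 held Dgcr8 without Drosha. By batch, Drosha without Dgcr8 was held by 6 of 18 control and 10 of 34 cKO cells in batch 1. In batch 2 it was held by 3 of 10 and 18 of 34.

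Tarbp2, the double-stranded RNA-binding partner of Dicer1, was the member with the largest genotype difference when batches were pooled and in batch 2, but not in batch 1, where Tnrc6a and Ago3 differed more. It ran from 0 through 117 to 421 TPM in control cells and from 0 through 38.6 to 263 TPM in cKO cells. Only 7 of 68 cKO cells lay above the control median. The cKO mean was lower by 2.03 log2 units (SD across cells 2.37 and 2.78), with −0.89 in batch 1 and −3.53 in batch 2. This was past the size rule, which 7.46% of the 15125 genes tested passed in the lower direction, and 0.93% of those genes had a lower difference than Tarbp2. Among detecting cells the mean was 6.50 in 26 control and 4.78 in 57 cKO cells. The difference stood at −1.32 in cells with 7000 to 11000 detected genes, at −1.11 with 4 clusters and at −0.76 over all cells of each genotype, the last below the size rule.

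Tnrc6a, which couples Argonaute to deadenylation, was the one member past the size rule in the higher direction, where 5.44% of genes lay. It ran from 0 through 3.68 to 17.0 TPM in control and from 0 through 9.93 to 54.3 TPM in cKO cells. Above the highest control cell were 16 of 68 cKO cells, and above the control median 50 of 68. The mean was higher by 1.04 log2 units in cKO cells (SD 1.34 and 1.68), with 1.15 in batch 1 and 1.00 in batch 2. The value lay next to the threshold: it was 0.96 in cells with 7000 to 11000 detected genes, 0.64 over all cells and 0.49 with a pseudocount of 10, none of them past the size rule. Tnrc6b, its paralog, ran from 0 through 2.65 to 14.8 TPM in control and from 0 through 6.98 to 33.8 TPM in cKO cells. Its mean was higher by 0.89 (0.50 in batch 1, 1.35 in batch 2), just short of the rule. The third family member, Tnrc6c, was higher by 0.84 (1.34 and 0.14). Summed over the 3 Tnrc6 genes, the median cell held 10.2 TPM in control and 23.1 TPM in cKO CM-like cells, with ranges of 0.143 to 35.4 and 0.244 to 86.0. The medians were 10.7 and 26.4 TPM in batch 1 and 9.42 and 20.6 TPM in batch 2.

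Because Tnrc6a carries 4 miR-30a seed matches, genes were also ordered by their number of such matches. The median cKO minus control difference was −0.01 over 9870 genes with none, 0.07 over 1689 genes with 1, 0.12 over 296 genes with 2 and 0.13 over 66 genes with 3 or more. By batch, genes with none had medians of 0.14 and −0.32, and genes with 3 or more had medians of 0.27 and −0.06. These steps are small, and medians over many genes cannot be set against the difference of 1 gene such as Tnrc6a. The number of matches grows with UTR length, and the order was not tested.

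The 3 Argonaute members were each slightly higher in cKO CM-like cells, in both batches. Ago2, the Argonaute that can itself cut a paired mRNA, ran from 0 through 7.18 to 20.9 TPM in control and from 0 through 9.09 to 49.3 TPM in cKO cells, and its mean was higher by 0.33 (0.55 and 0.10). It was detected in 27 of 28 and 65 of 68 cells. Ago3 was higher by 0.63 (0.96 and 0.23), was detected in 12 of 28 control cells, 42.9% (24.5 to 62.8), and 40 of 68 cKO cells, 58.8% (46.2 to 70.6), and was lower by 0.14 when all cells of each genotype were compared. Ago1 was higher by 0.07 (0.15 and 0.08) and was detected in 11 of 28 and 22 of 68 cells. Ago2 was the highest of the 4 Argonaute transcripts in 22 of the 27 control CM-like cells with any Argonaute and in 44 of 66 such cKO cells. Its part of a cell's summed Argonaute TPM had a median of 85.7% over these control cells and 82.3% over these cKO cells. The medians were 86.5% and 81.7% in batch 1 and 75.8% and 87.0% in batch 2, so their order turned between batches.

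Xpo5 and Dicer1, which act between the microprocessor and Argonaute, did not keep 1 direction across batches. Xpo5 ran from 0 through 0.678 to 25.1 TPM in control and from 0 through 0 to 65.3 TPM in cKO cells, and its difference of −0.18 came from 0.60 in batch 1 and −1.33 in batch 2. In batch 2, transcripts were found in 90.0% of 10 control cells (55.5 to 99.7) but in 32.4% of 34 cKO cells (17.4 to 50.5). In batch 1 the shares were 55.6% (30.8 to 78.5) and 55.9% (37.9 to 72.8). Dicer1 ran from 0 through 1.50 to 28.6 TPM and from 0 through 2.55 to 30.5 TPM, and its difference of 0.24 came from −0.03 and 0.56. Dicer1 was found in 20 of 28 control and in 59 of 68 cKO cells.

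**Figure D2:**
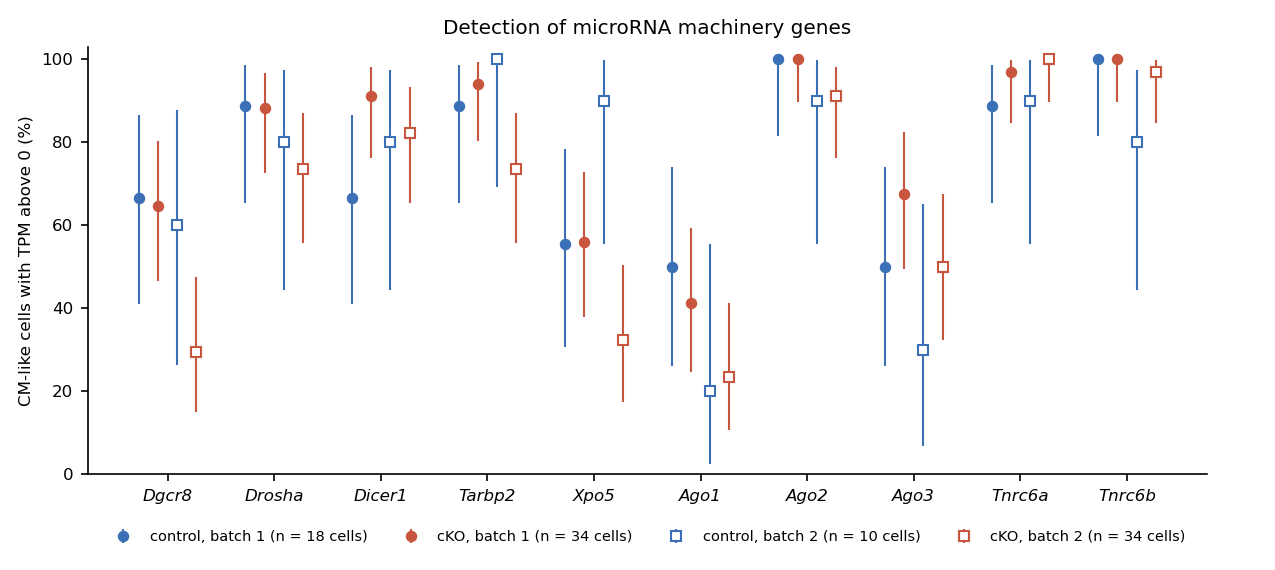
Share of CM-like cells with a TPM above 0 (vertical axis, %) for each gene, by genotype and batch, with exact 95% intervals over cells. The intervals cover counting error over cells only and do not test the genotypes. In batch 2, 90.0% of 10 control cells and 32.4% of 34 cKO cells detected Xpo5. The median number of detected genes in those cells was 9679 in control and 7765 in cKO, and the share of all genes with such a difference was not counted.

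Over the 10 members the median difference was 0.15, with 0.37 in batch 1 and 0.09 in batch 2, while over the 15125 genes it was 0.01, with 0.14 and −0.22. Of the 10, 5 were higher in both batches (Ago1, by only 0.07 pooled, Ago2, Ago3, Tnrc6a and Tnrc6b) and 1 was lower in both (Tarbp2). The other 4 changed sign (Dgcr8, Drosha, Dicer1 and Xpo5). Of 16 further silencing effectors, described below, 6 were higher in both batches and 2 lower in both. Among all genes 27.7% were higher and 27.9% lower in both batches. All 10 passed the filter on low values, detection in more than 10 CM-like cells. With 1 member past the size rule in each direction, the members' share was near the background.

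**Figure D3:**
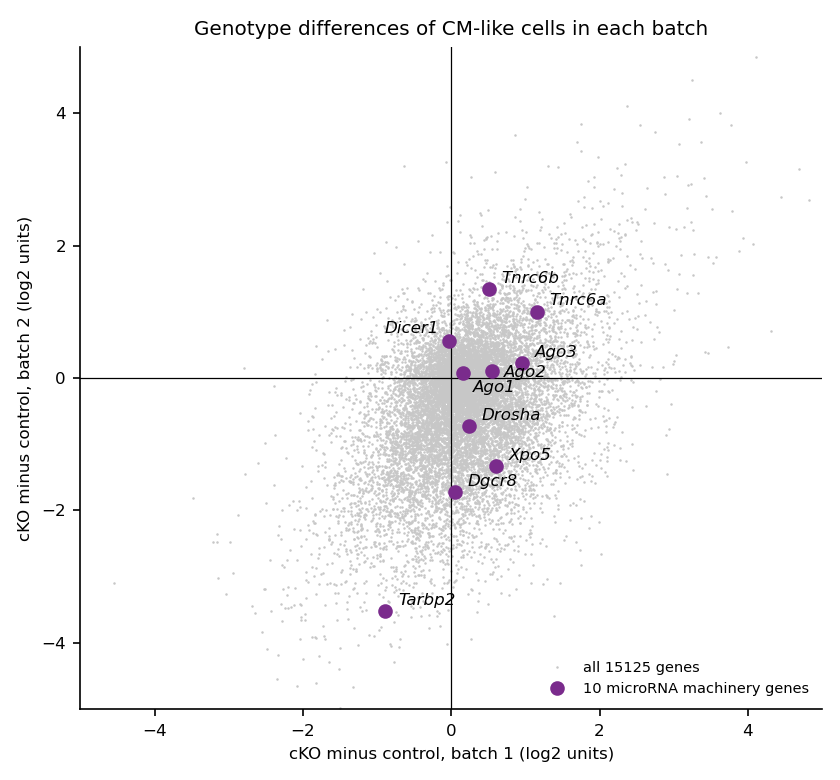
Difference between cKO and control CM-like cells in batch 1 (horizontal axis) and batch 2 (vertical axis), in log2 units, for 15125 genes (grey) and the 10 members (purple); 7 genes lie outside the axes. The Argonaute and Tnrc6 members lie in the upper right and Tarbp2 at the lower left, at −0.89 and −3.53, while Dgcr8, Drosha and Xpo5 lie below 0 in batch 2 and above it in batch 1.

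The 2 batches of cKO cells were then compared directly, 34 CM-like cells in each. Dgcr8 was detected in 22 cells of batch 1 and 10 cells of batch 2, and its mean was lower by 1.34 log2 units in batch 2 (2.31 ± 2.72 against 0.97 ± 1.96). Tarbp2 was lower by 1.37 (4.69 ± 2.51 against 3.32 ± 2.91) and was detected in 32 and 25 cells. These 2 of the 10 members were lower by at least 1 log2 unit, which was true of 5.54% of 13745 genes, and no member was higher by that much, against 2.85% of genes. Xpo5 was lower by 0.67, Ago3 by 0.48, Tnrc6a by 0.43, Ago2 and Ago1 by 0.39 each and Drosha by 0.24, while Tnrc6b was higher by 0.60 and Dicer1 by 0.39. In cells with 7000 to 11000 detected genes the difference was −1.37 for Dgcr8 and −1.25 for Tarbp2. Among the control CM-like cells the same genes went the other way, Dgcr8 being higher by 0.43 and Tarbp2 by 1.27 in batch 2, where 10 cells were read. The median over 10111 genes was higher by 0.55 in that comparison, and 43.9% of them had a lower difference than Dgcr8 and 77.2% a lower one than Tarbp2.

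Among control cells the machinery was read in all 3 named classes. Endothelial-like cells had less Dgcr8 and more Xpo5 and Tnrc6a than CM-like cells. Dgcr8 ran from 0 through 0 to 192 TPM in the 22 endothelial-like cells, was detected in 10 of them, 45.5% (24.4 to 67.8), and had a mean lower by 1.37 log2 units (−0.53 in batch 1, −1.97 in batch 2). Xpo5 ran from 0 through 8.08 to 139 TPM, was detected in 16 of 22 cells and was higher by 1.17 (1.35 and 0.49). Tnrc6a ran from 0.246 through 9.14 to 27.4 TPM, was detected in all 22 cells and was higher by 1.10 (0.59 and 1.47). These were 2 members past the size rule in the higher direction, where 19.5% of 13263 genes lay, and 1 in the lower direction, where 8.53% lay, so the members' share did not stand out from the background. Ago3 was higher by 0.98 (0.58 and 1.04), Drosha by 0.55 (0.79 and 0.10) and Ago2 by 0.39 (0.45 and 0.34). The remaining 4 members lay between −0.78 (Tarbp2, which turned from 1.14 in batch 1 to −2.28 in batch 2) and 0.02 (Dicer1).

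Epicardial-like cells differed from CM-like cells most in Tarbp2. It ran from 0 through 28.7 to 264 TPM in the 13 cells and was lower by 2.14 log2 units (−1.27 and −3.14), or by 1.28 among cells with 7000 to 11000 detected genes. Tarbp2 was detected in 9 of 13 epicardial-like and 26 of 28 CM-like cells, with means of 5.63 and 6.50 among them. In batch 1 it was detected in 4 of 4 and 16 of 18 cells, with means of 4.31 and 6.28 among them. In batch 2 these were 5 of 9 and 10 of 10 cells, with close means of 6.68 and 6.85. Ago3 ran from 0 through 1.05 to 56.0 TPM, was detected in 7 of 13 cells and was higher by 1.32 (1.51 and 1.12). The size rule was passed by 1 member in the higher direction, against 17.7% of 12066 genes, and by 1 in the lower direction, against 8.10%. Tnrc6a was higher by 0.94 (−0.19 in batch 1, 1.58 in batch 2). Pooled, Dgcr8, at −0.05, Dicer1, at 0.17, Xpo5, at 0.11, and Tnrc6b, at 0.03, differed by far less than their SD. Each of them changed sign between batch 1 and batch 2. The values were 0.66 and −0.58 for Dgcr8, −0.66 and 0.63 for Dicer1, 1.74 and −1.22 for Xpo5, and −0.04 and 0.18 for Tnrc6b. Ago1 was detected in 2 of 13 cells. The batch 1 values rest on 4 epicardial-like cells.

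Set against endothelial-like cells, epicardial-like cells had more Dgcr8, higher by 1.32 (1.19 and 1.39), and less Tarbp2, lower by 1.36 (−2.41 and −0.86). Each was past the size rule, as were 10.6% of 11527 genes in the higher and 12.8% in the lower direction. Among cells that detected Tarbp2, the mean was 5.63 in 9 of 13 epicardial-like and 6.42 in 18 of 22 endothelial-like cells. In batch 1 it was 4.31 and 6.72, and in batch 2 the order turned, at 6.68 (5 of 9 cells) and 6.23 (11 of 15 cells). Ago1 did not reach the minimum of more than 10 cells in this comparison. Ago2 differed little between the 3 classes, at 2.78 ± 1.31, 3.17 ± 0.91 and 3.09 ± 1.34 in CM-like, endothelial-like and epicardial-like cells, and was detected in all 22 and all 13 cells of the latter classes. Its part of a cell's summed Argonaute TPM had a median of 85.7% in CM-like, 66.2% in endothelial-like and 49.4% in epicardial-like cells, with 86.5%, 81.1% and 65.7% in batch 1 and 75.8%, 45.0% and 35.9% in batch 2. The other cells were few: in the 3 erythroid-like cells Tarbp2 and Ago1 were at 0, while Ago3 reached 88.3 TPM.

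**Figure D4:**
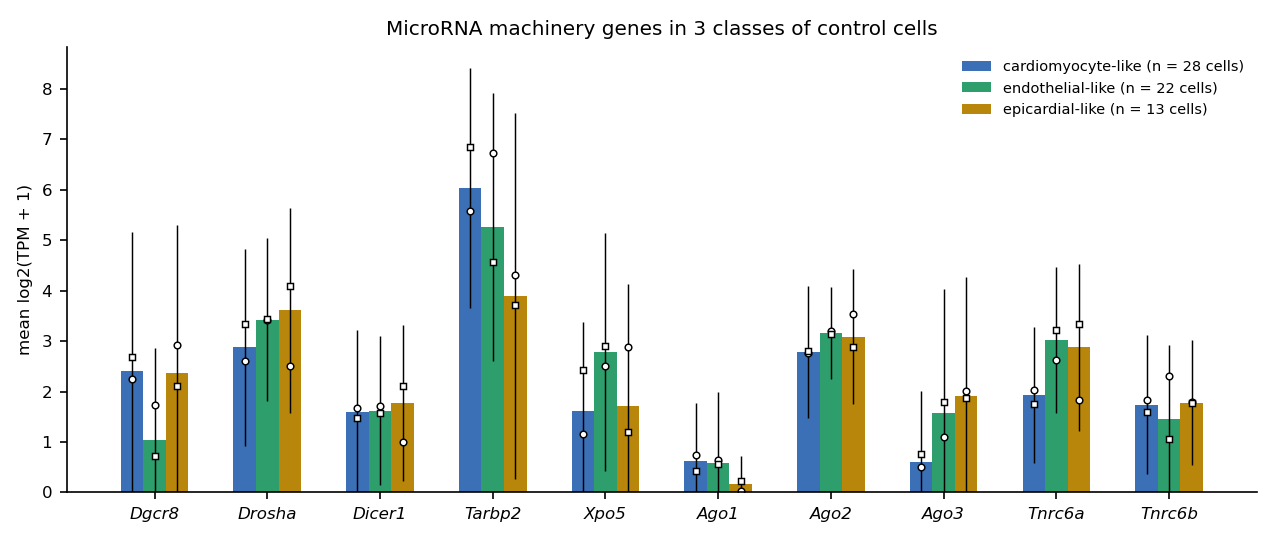
Mean log2(TPM + 1) of each gene in control CM-like, endothelial-like and epicardial-like cells (bars), with the SD across cells (lines, ended at 0 where they would pass below it) and the mean of batch 1 (circles) and batch 2 (squares). Tarbp2 is lowest in the epicardial-like cells in both batches, and the batch means of Dgcr8 lie lowest in the endothelial-like cells.

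Another 36 genes of the pathway put the members in context. They were 7 microprocessor partners, 7 genes of export, dicing and Argonaute loading, 6 of precursor turnover and 16 silencing effectors, and all 36 passed the filter on low values. In cKO against control CM-like cells 2 of the 36 were past the size rule in the higher direction and 2 in the lower direction, against 5.44% and 7.46% of all genes. Their median difference was 0.15, with 0.42 in batch 1 and −0.19 in batch 2.

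Ran, the GTPase that Xpo5 needs to carry pre-microRNAs, was lower by 1.27 in cKO cells (−0.79 and −1.85), and its TPM ran from 63.4 through 635 to 1709 in control and from 0.619 through 341 to 1143 in cKO cells. Dis3l2, the exonuclease that degrades uridylated pre-let-7, was lower by 1.07 (−0.72 and −1.61) and was detected in 19 of 28 and 27 of 68 cells. Mov10, an RNA helicase found with Argonaute, was higher by 1.52 (1.18 and 1.69), and was detected in 13 of 28 control cells, 46.4% (27.5 to 66.1), and 49 of 68 cKO cells, 72.1% (59.9 to 82.3). Cnot6, a catalytic deadenylase of the CCR4-NOT complex, was higher by 1.13 (0.39 and 2.49). Of these 4, only Ran was past the rule with a pseudocount of 10.

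Among the microprocessor partners none was past the rule, and they ran from −0.67 for Ncbp1, a cap-binding protein (−0.12 and −1.35), to 0.90 for the RNA-binding protein Khsrp (1.05 and 0.71). In the export and loading group the highest was Adar, the inosine editor of double-stranded RNA, at 0.60 (0.26 and 0.89). In the turnover group it was Zcchc11, a terminal uridylyltransferase, at 0.65 (0.37 and 0.98). The lowest silencing effector was Cnot2, a structural subunit of CCR4-NOT, at −0.60 (−0.45 and −1.05). The group medians were 0.05, 0.25, −0.02 and 0.21 in the order given above.

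**Figure D5:**
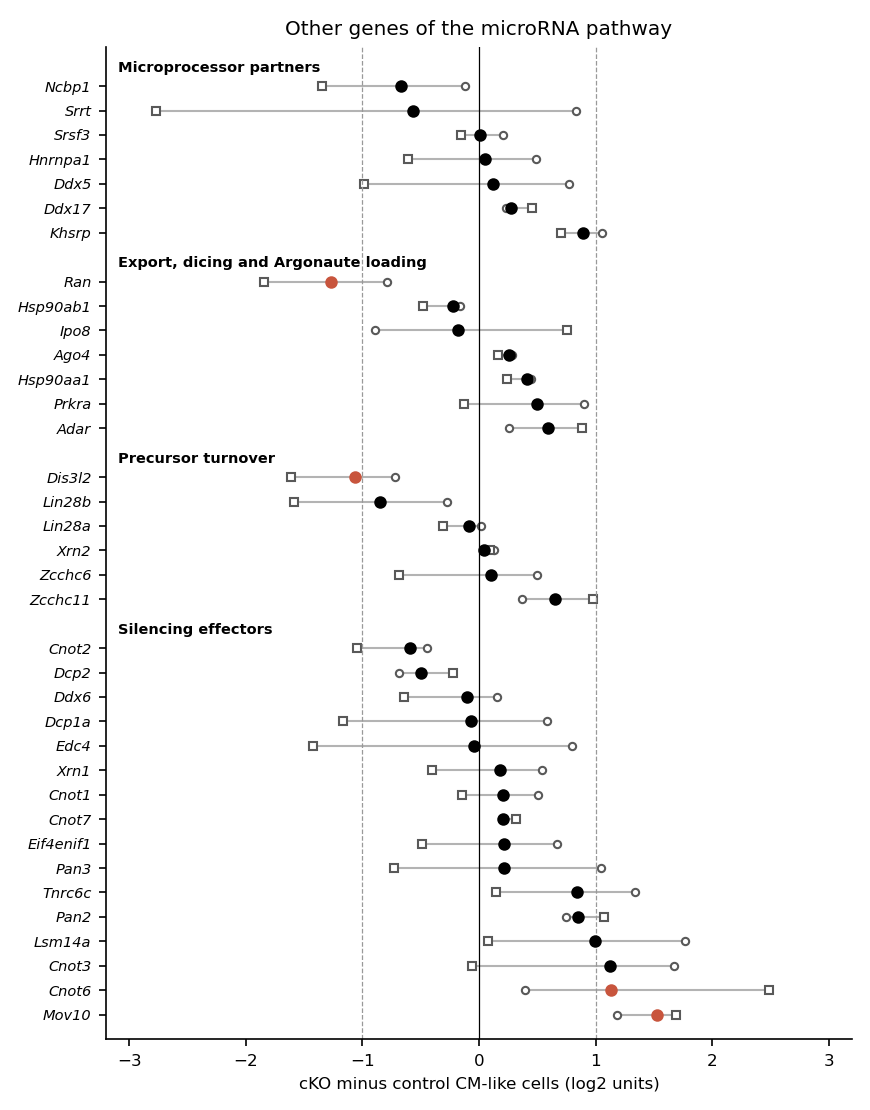
Difference between cKO and control CM-like cells (horizontal axis, log2 units) for 36 further pathway genes in 4 groups. Filled points give the pooled difference, red where past the size rule. Open circles give batch 1 and open squares batch 2, and dashed lines mark 1 log2 unit. Ran and Dis3l2 lie to the left of −1, and Mov10 and Cnot6 to the right of 1. Cnot3 also lies to the right of 1, at 1.12, but is not past the size rule. Its difference turned from 1.67 in batch 1 to −0.06 in batch 2.

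The members did not vary closely together from cell to cell. Over all 143 cells the 45 pairs of members had Spearman correlations of −0.05 to 0.38 with a median of 0.13. The highest were Ago2 with Tnrc6a (0.38), Tnrc6a with Tnrc6b (0.35) and Ago2 with Tnrc6b (0.31). Ago2, Tnrc6a and Tnrc6b were also detected in the largest shares of cells among the members, at 95.8%, 95.1% and 92.3%. The pairs of Ago1 and Ago3 with Tnrc6a and Tnrc6b had correlations of only 0.05 to 0.18. Dgcr8 and Drosha, which share a complex, had a correlation of 0.06, and for Dgcr8 the highest among members was Tarbp2 (0.30). Of 16658 other genes the 5 most like Dgcr8 were Srek1ip1 (0.42), Trp53i13 (0.39), Sod2 (0.38), Vnn1 (0.38) and Cbx3 (0.37). These cells share libraries, genotypes and depth: the correlation with the number of detected genes was 0.35 for Dgcr8, 0.26 to 0.49 for those 5 genes and 0.13 to 0.39 over the 10 members. Such weak correlations in sparse values describe these cells only.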

How the data were processed

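Single cells were amplified by Smart-seq2, and the authors estimated TPM (length-scaled transcript abundance) with Salmon on mm10; the version and annotation are not given in the sources used here. The deposited TPM values summed to 996133 to 999999 per cell. The authors kept cells with high mapping rates and removed cells with an abnormal reporter. Raw counts were not used, so depth is given as the number of detected genes. The table has a column for 143 of 170 labelled samples, the other 27 were not analysed here, and every column was distinct.

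Values were used as log2(TPM + 1) in Python 3.11.15 with scipy 1.17.1. Cells were clustered hierarchically on 55 markers of 5 cell types into 5 clusters, each named by its markers. The background held genes detected in more than 10 of the compared cells. Because TPM is not a count and each genotype is 1 sample, only sizes are given, with exact (Clopper-Pearson) 95% intervals for shares. The study tested cells as replicates with a rank-sum test, which was not done. Doublets were not called, since cells were picked singly. The members and gene lists were chosen with earlier results of these data known. Named genes were the members, the other pathway genes past the size rule, the highest and lowest gene of each pathway group, the 5 genes most like Dgcr8, and Xist and Ddx3y; genes beside these were named after their values were seen. The calculation of differences was checked on simulated data.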

Additional observations from a re-analysis of the deposited data

How the results depend on the processing

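No paired analysis was possible because a title's number names 1 cell and no result comes from a test. Each value is 1 sample per genotype, so batches are the only repeat. The median cKO minus control difference over the 10 members (0.15) was 0.63 as a log2 ratio of mean TPM + 1, 0.37 in batch 1 and within the spread of the batches in the 12 other alternatives, 1 of them chosen after seeing the data (without the 2 CM-like cells rich in erythroid markers). The median difference in detection share (−2.84 percentage points) was −1.68 with detection at TPM 1 or more, 0.16 in batch 1 and 1.76 in batch 2. In batch 1 the median between control classes was 0.53 (endothelial-like minus CM-like, 0.21 as reported), −0.071 (epicardial-like minus CM-like, 0.14) and −0.56 (epicardial-like minus endothelial-like, 0.04); the second was 0.32 with a pseudocount of 0.1. The members past the size rule were 5 with a pseudocount of 0.1 (Dgcr8, Ago3 and Tnrc6b besides the 2) and 1 with a pseudocount of 10 (Tarbp2). The other pathway genes past it (4) were 9, 1 and, with 4 clusters, 7. Over all genes the rule was passed by 823 higher and 1128 lower, by 1428 and 2094 with a pseudocount of 0.1, by 242 and 250 with one of 10, and by 1643 and 403 with 4 clusters, where the 9 unnamed cells joined the CM-like cells. Tarbp2, Ago2, Tnrc6a and Tnrc6b kept their sign in all 14 alternatives of the genotype difference, Tarbp2 from −3.53 to −0.76 and Tnrc6a from 0.49 to 1.44. Drosha was 0.72 and Xpo5 0.62 as a ratio of mean TPM, against −0.13 and −0.18. The causes were not tested. Levels near 0 cannot separate an absent transcript from one that was not captured.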

Other observations

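The 9 unnamed cells, led by mitochondrial transcripts with a median mitochondrial share of 52.3% in the 8 control cells and 61.4% in the 1 cKO cell, entered none of the comparisons between cell classes or of CM-like cells by genotype, apart from the alternatives that used all cells or 4 clusters. In that cKO cell 7 of the 10 members were detected, none above 0.741 TPM (Tnrc6b), and Dgcr8 stood at 0.190 TPM. In the 8 control cells Dgcr8 was detected in 4 and reached 317 TPM in 1, while summed Argonaute TPM had a median of 0.164. Many values above 0 in CM-like cells were also small. Dgcr8 reached 1 TPM in 15 of the 18 control and 21 of the 32 cKO CM-like cells that held any, and Ago3 in 5 of 12 and 23 of 40.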
